A study of Drosophila melanogaster x Drosophila sechellia and Drosophila melanogaster and Drosophila sechellia with 12 samples.

Results

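The share of reads that carried the Drosophila melanogaster allele was compared between F1 hybrids of D. melanogaster and Drosophila sechellia and a mixture of the parent species. The readout is the number of D. melanogaster reads, edited and unedited together, as a percentage of all reads of both alleles at a site, and it says nothing of editing itself. Members are sites with at least 50 reads in each of the 5 libraries compared, at which at most 5% of the reads of either species' own libraries had been given to the other species. Of 1058 sites, 993 had the reads and 848 of these were kept. At 5 kept sites the D. sechellia libraries had no read, so the limit was judged there on the D. melanogaster libraries alone. Sites up to 1000 bases apart on a chromosome arm were joined, which gave 263 loci, against 309 when all sites of the series are joined.

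In an F1 hybrid the alleles of both species share the same nuclei and the same regulatory proteins, so a difference between their RNA amounts travels with the allele (cis). In separate species each allele is read in its own cells, where cis differences and differences in the regulatory proteins (trans) add up. A mixture of parental material sequenced as one library gives the parental ratio under the same amplification, and setting the hybrid share against it is the classical way to separate these parts. The ratio in such a mixture also depends on how much of each species went in, and a PCR primer can favour one allele in both kinds of library.

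All RNA was from the heads of female adults aged 0 to 2 days, and 493 loci were amplified by RT-PCR and sequenced (mmPCR-seq, multiplex PCR followed by sequencing). The groups used here were F1 hybrids (n = 3), F1 hybrids whose D. melanogaster parent carried an Adar mutation, called Adar F1 (n = 3), D. sechellia (n = 2), D. melanogaster (n = 2) and the mixed parents (n = 2). Adar encodes the enzyme that deaminates adenosine in double-stranded RNA. The labels give neither the stocks, the Adar allele, which species was the mother nor the amounts mixed. They do not say whether replicates came from separate flies, and the p-values here describe library-to-library spread that could be technical.

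The 5 compared libraries held 251870 to 325139 reads, and the median kept site had 226 to 284.5 reads. At kept sites, 0.209% to 0.550% of the reads of the separate species' libraries had been given to the other species. Of the 145 covered sites left out, 129 were over the limit in the D. sechellia libraries and 20 in the D. melanogaster libraries, with 4 over it in both. The left-out sites had a pooled D. melanogaster share of 91.5% to 92.8% in the F1 libraries and 90.7% to 92.1% in the mixed parents. The kept site with the fewest reads had 53 in its poorest library and the best site below had 49, and the highest kept misassigned share was 4.77%, the lowest left out 5.15%.

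F1 replicate 3 stood nearer to the mixed parents than the other F1 libraries did. Its share was nearer the mixed parents' mean than the mean of the other F1 libraries at 114 of 263 loci, against 82 loci for F1 replicate 1 and 81 for F1 replicate 2. Summed over loci, a chi-square of allele reads between F1 replicates 1 and 2 was 1.39 per degree of freedom, between F1 replicates 1 and 3 it was 2.98, and between F1 replicates 2 and 3 it was 2.40. For the mixed parents pair it was 1.18 (chi-square p = 0.0237), and no pair of replicate libraries was counted as 1 sample. The chi-square covers counting error only and takes reads as independent molecules, which PCR reads are not. Main results that rest on F1 replicate 3 are given with and without it.

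The D. melanogaster allele took a larger part of the reads in F1 than in the mixed parents, by a small amount at most loci. The mean over loci was 65.0%, 64.9% and 63.7% in F1 replicates 1, 2 and 3, against 60.9% and 60.6% in the mixed parents. All F1 libraries lay above both mixed libraries. F1 averaged 64.5% ± 0.701 (SD, n = 3) and the mixed parents averaged 60.8% ± 0.221 (n = 2), so F1 stood 3.77 percentage points higher. Permuting the libraries exactly, two-sided, gave p = 0.2, which is as low as 3 libraries against 2 can reach. The median over loci was 58.9% ± 1.35 in F1 and 54.1% ± 0.0275 in the mixture. Pooling all reads gave 61.7% ± 0.703 in F1 and 58.2% ± 0.137 in the mixture.

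**Figure D1:**
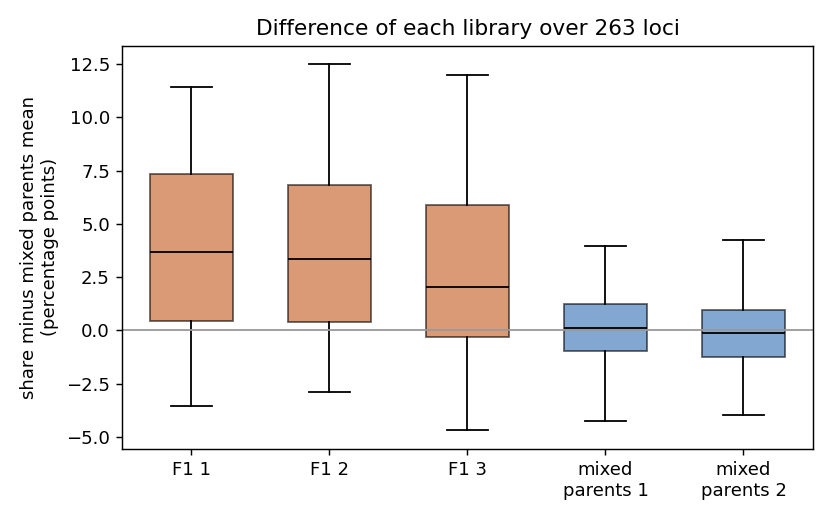
Share of D. melanogaster reads in each library minus the mean of the mixed parents, in percentage points, over 263 loci. Boxes run from the lower to the upper quartile with the median as a line, and whiskers leave out the outermost 5% of loci on each side; the medians of F1 replicates 1, 2 and 3 stand at 3.69, 3.35 and 2.04 points. Loci of the mixed parents define the zero line, so their own boxes show only their spread around it.

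The shift was spread over the genome. The F1 mean share was higher at 216 of 263 loci (82.1%), lower at 43 (16.3%) and equal at 4 (1.52%), with a median difference of 3.49 points and a median log odds difference of 0.19 (natural log). The libraries of the groups did not overlap at 116 loci (44.1%). In 107 of these (40.7% of all loci) every F1 library lay above both mixed libraries, and in 9 (3.42% of all) every F1 library lay below both. Leaving out a library moved the count of 9 to 18 without F1 replicate 1, 14 without F1 replicate 2, 13 without F1 replicate 3, 14 without mixed parents replicate 1 and 29 without mixed parents replicate 2; fewer libraries overlap less often by construction. Without F1 replicate 3 the mean was higher in F1 at 220 loci and the median difference was 3.81 points. The median was 5.23 points at 45 loci on 2L, 3.60 at 53 loci on 2R, 3.89 at 41 loci on 3L, 2.91 at 68 loci on 3R, 3.003 at 6 loci on chromosome 4 and 2.52 at 50 loci on X. These medians are a description, and no difference between arms was tested.

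A shift of this kind, common to most loci, cannot be told apart from the proportion in which the parents were mixed. When each library was centred on its own median log odds, 130 of 263 loci had a higher mean in F1, all F1 libraries lay above the mixed parents at 31 loci, and all lay below at 34. Centring itself puts about equal numbers of loci on either side, so these counts carry no test of the mixing proportion. In percentage points the difference also varied with the level in the mixture. At the 4 loci with a mixed share under 20% the median difference was 6.30 points, at the 32 loci with a mixed share from 20 to 40% the median difference was 7.29 points, at 115 loci from 40 to 60% it was 4.08, at 51 loci from 60 to 80% it was 3.73, at 28 loci from 80 to 95% it was 1.24, and at 33 loci from 95% on it was 0.0907. On the log odds scale the medians were 0.46, 0.30, 0.18, 0.17, 0.15 and 0.20 in the same order. From a mixed share of 40% on they thus differed little, and the fall there was one of points. The mixed share that sorts these loci also enters the difference.

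Locus by locus, 3 of 259 loci tested (1.16%) passed an adjusted p of 0.05 in the quasi-binomial test with Benjamini-Hochberg adjustment, and all 3 were higher in F1. None was lower; at an unadjusted p under 0.05 there were 56 loci (21.6%), all of them higher in F1, and limma on logit shares called 2 loci, also higher, neither of them among these 3. The adjusted p of all 3 loci was 0.0445, close to the threshold. The count rests on leaving 4 loci out of the fit, which had no D. sechellia read in any of the 5 libraries and whose dispersion is undefined. As first run, with those 4 loci kept, the fit called 0 loci (41 at an unadjusted p under 0.05) and the adjusted p of each of the 3 loci was 0.190; the handling used here was chosen with both counts known. After centring on the median log odds no locus passed, 16 had an unadjusted p under 0.05, and the lowest adjusted p was 0.237.

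The largest of the 3 differences lay on X at 11848310, a locus of 1 site (dm3 build, as are all positions here; the tables pair positions with no gene, and none was assigned). D. melanogaster reads made up 68.4%, 62.0% and 57.4% in F1 replicates 1 to 3, against 39.2% and 31.3% in the mixed parents. The libraries of the groups did not overlap, and the majority allele was D. melanogaster in every F1 library and D. sechellia in both mixed libraries. Means were 62.6% ± 5.51 in F1 (SD, n = 3) and 35.3% ± 5.54 in the mixture (n = 2), a difference of 27.4 points (adjusted p = 0.0445, quasi-binomial test), at 120 to 162 reads per library. On unedited reads alone F1 stood 20.3 points higher (adjusted p = 0.291, quasi-binomial test). Centring and the other tests aside, the adjusted p ran from 5.53e-07 to this value over the alternatives that kept replicates in both groups. The lowest came from the quasi-binomial fit with the replicate number as a block. In that fit F1 replicate 3 has a term of its own and adds nothing to the difference or its spread. The next lowest was 0.00187, in the quasi-binomial test without F1 replicate 3. Joining sites within 5000 bases merged this position with others, and the merged difference was 5.51 points.

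On the same arm, the locus from X 11864562 to 11864594 held 6 sites. Its share was 58.8%, 58.3% and 65.1% in F1, against 37.7% and 42.8% in the mixed parents, again without overlap and with the majority allele exchanged. The difference was 20.5 points (adjusted p = 0.0445, quasi-binomial test). All 6 sites, which lie within 33 bases and can share reads, gave nearly one value, 60.7% to 60.8% in F1 and 40.2% in the mixed parents.

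Between and beside these loci the shares were uneven. At X 11858225 to 11858226 they were 44.2%, 42.6% and 44.9% in F1 and 39.1% and 40.9% in the mixture. At X 11862709 to 11862818 they were 53.6%, 51.8% and 58.04% in F1 and 48.3% and 39.07% in the mixture. F1 lay above the mixed parents at both, without overlap, but neither passed the test (adjusted p = 0.506 at X 11858225 and 0.287 at X 11862709). The outermost loci of this stretch were almost entirely D. melanogaster in both groups. X 11843915 to 11843916 averaged 99.02% in F1 and 99.2% in the mixture, and X 11865712 to 11865886 averaged 95.1% in F1 and 94.8% in the mixture. They were described here because they flank the called loci, after their values were seen.

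The last of the 3 loci, 2R 8646087, was a locus of 1 site at which D. melanogaster reads already prevailed in the mixture. The share was 88.3%, 90.6% and 87.9% in F1, against 79.3% and 79.95% in the mixed parents. F1 averaged 88.9% ± 1.42 (SD, n = 3) and the mixed parents 79.6% ± 0.436 (n = 2), a difference of 9.28 points (adjusted p = 0.0445, quasi-binomial test) at 300 to 476 reads. All 3 loci lost the call when F1 replicate 1, F1 replicate 2 or either mixed library was left out, with differences of 8.47 to 9.59 points at 2R 8646087, 23.4 to 31.3 at X 11848310 and 18.0 to 23.1 at X 11864562. With 1 mixed library, the spread comes from F1 alone and the lone library is assumed to vary likewise. Without F1 replicate 3 they kept it, among 19 loci called, 18 higher in F1 and 1 lower.

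Just short of the threshold, and named after their values were seen, were 2R 16974163 and 3L 7396948, each with an adjusted p of 0.0539. At 3L 7396948, 87.8%, 89.5% and 93.3% of the F1 reads were D. melanogaster, against 67.5% and 75.9% in the mixed parents. That is a difference of 18.5 points without overlap.

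**Figure D2:**
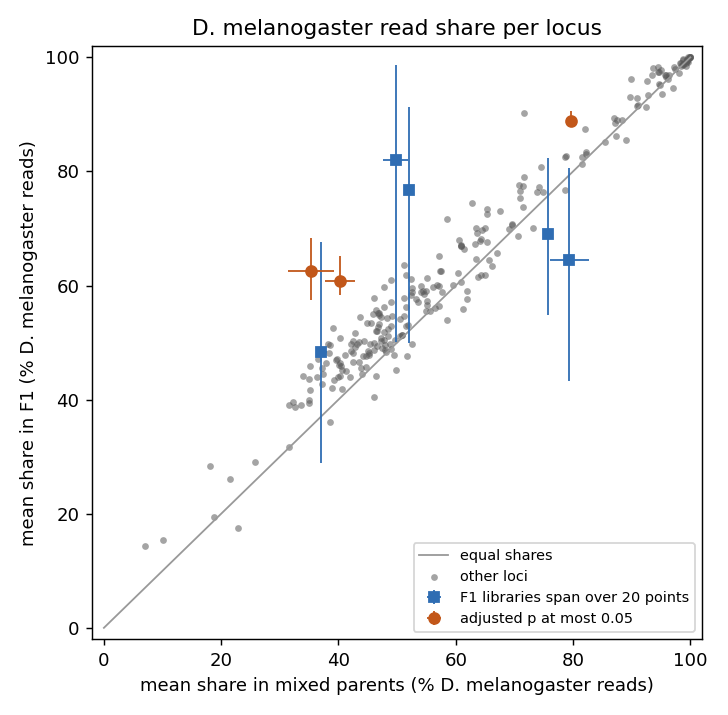
Mean share of D. melanogaster reads (%) in F1, on the vertical axis, against the mixed parents, on the horizontal axis, for 263 loci; bars on the coloured points run from the lowest to the highest library. Most loci lie slightly above the line of equal shares. The 3 called loci (orange circles) lie 9.28, 20.5 and 27.4 points above it, and uncalled loci reach 32.2 points above it. The 5 loci whose F1 libraries span over 20 points (blue squares) have long vertical bars.

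Shares were otherwise much alike in both groups. Across the 263 loci the F1 and mixed means had r = 0.974 and Spearman's rho = 0.954, a description over loci that share primers, libraries and depth. In F1, 4 loci had a mean share under 20%, 11 lay from 20 to 40%, 124 from 40 to 60%, 57 from 60 to 80%, 26 from 80 to 95% and 41 at 95% or more. In the mixed parents these counts were 4, 32, 115, 51, 28 and 33. The difference was within 5 points at 161 loci and over 10 points at 23, of which 22 were higher in F1. The median SD between libraries was 2.57 points in F1 (n = 3) and 1.67 points in the mixed parents (n = 2). The median of such SDs depends on the number of libraries, so these values do not compare the spread of the groups.

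Loci read almost entirely as D. melanogaster were so in both groups. Of the 33 loci at 95% or more in the mixed parents, 31 were at 95% or more in F1. They had a median of 270 reads per site in the pooled D. sechellia libraries, against 547.7 at the other loci, while the pooled D. melanogaster libraries had 550.2 at these loci and 593.5 at the others. Among the 33 were 4 without a single read in the D. sechellia libraries, namely 2L 13299974, 3R 7989965, 3R 11648190 and 3R 26470865. These 4 are the loci at 100% D. melanogaster reads in all 5 libraries. For 3R 11648190 in F1 replicates 1, 2 and 3, a count of 0 among 270, 272 and 185 reads allows a D. sechellia share of up to 1.11%, 1.10% and 1.62% (3 reads, counting error only). As the separate D. sechellia libraries had no read there either, this limit holds for reads and not for RNA of that allele. Whether amplification of the D. sechellia sequence plays a part in these shares was not tested.

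The D. sechellia allele had the majority of reads, with a mean D. melanogaster share under 50%, at 74 loci in F1 and at 109 in the mixture, 72 of them the same loci. Shares under 20% were rare. The lowest F1 mean was 14.4% ± 4.87 at 3R 17168189, with 10.5%, 12.9% and 19.9% in F1 and 9.52% and 4.51% in the mixture (adjusted p = 0.269, quasi-binomial test). X 6001644 had 9.52%, 17.2% and 19.4% in F1 and 5.40% and 14.9% in the mixture, and its groups overlapped. At 3R 16819563 to 16819575, F1 was the lower group, with 17.9%, 16.1% and 18.6%, against 23.02% and 22.7% in the mixed parents. Without overlap, this difference of -5.31 points missed the threshold (adjusted p = 0.335).

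Of the 9 loci at which every F1 library lay below both mixed libraries, the largest difference was at 3L 9826390 to 9826587, a locus of 18 sites named after its values were seen. It had 39.3%, 44.3% and 37.9% in F1, against 44.7% and 47.6% in the mixture, a difference of -5.62 points (adjusted p = 0.269, quasi-binomial test). It had 418.4 to 562 reads per site in each library. The highest F1 library, at 44.3%, and the lowest mixed library, at 44.7%, nearly met.

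A pair of loci divided the F1 libraries among themselves; they were singled out after their values were seen. At 2L 20872840 the share was 97.1% and 98.7% in F1 replicates 1 and 2 but 50.1% in F1 replicate 3, against 47.7% and 51.9% in the mixed parents. The D. sechellia allele had 7, 3 and 190 reads in the F1 libraries and 191 and 188 in the mixed ones, while D. melanogaster reads stood at 233, 221 and 191 in F1 and 174 and 203 in the mixed parents. At 2R 10628830 the pattern was alike, with 91.3% and 89.1% in F1 replicates 1 and 2, 72 reads of each allele in F1 replicate 3, and 52.5% and 51.6% in the mixture. The D. sechellia allele had 9, 14 and 72 reads in F1 and 75 in each mixed library. The separate D. sechellia libraries together had 26 reads at 2L 20872840 and 47 at 2R 10628830, where the D. melanogaster libraries had 954 and 383, so misassigned D. sechellia reads were judged there on few reads. At both loci this was also fewer than the D. sechellia reads of either mixed library. The mixture thus did not match the separate D. sechellia libraries there, and the cause was not tested. F1 replicate 3 thus sat with the mixed parents at both loci, and with it the differences did not pass (adjusted p = 0.291 for both). Without F1 replicate 3 the quasi-binomial test gave adjusted p = 6.38e-09 at 2L 20872840 and 5.28e-05 at 2R 10628830. After centring as well they were 5.13e-07 and 0.000609, and X 11848310 was the only other locus that passed (0.0230).

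Wide spread among F1 libraries was rare and took other forms elsewhere. The F1 libraries spanned over 20 points at 5 loci, including these 2. At 3R 16852418 the share was 43.3%, 69.6% and 80.7% in F1, against 82.7% and 76.01% in the mixed parents, and F1 replicate 3 was again with the mixed parents. Without it this locus was the 1 called lower in F1, by -22.9 points (adjusted p = 0.0376, and 0.0803 after centring as well). At 3L 9860438 it was 28.9%, 48.4% and 67.6% in F1, against 37.96% and 36.1% in the mixed parents, and at X 14166125 it was 82.4%, 69.7% and 54.8% in F1, against 76.5% and 74.9% in the mixed parents. There F1 replicate 3 lay outside the mixed parents. Over all loci the F1 range had a median of 4.88 points.

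**Figure D3:**
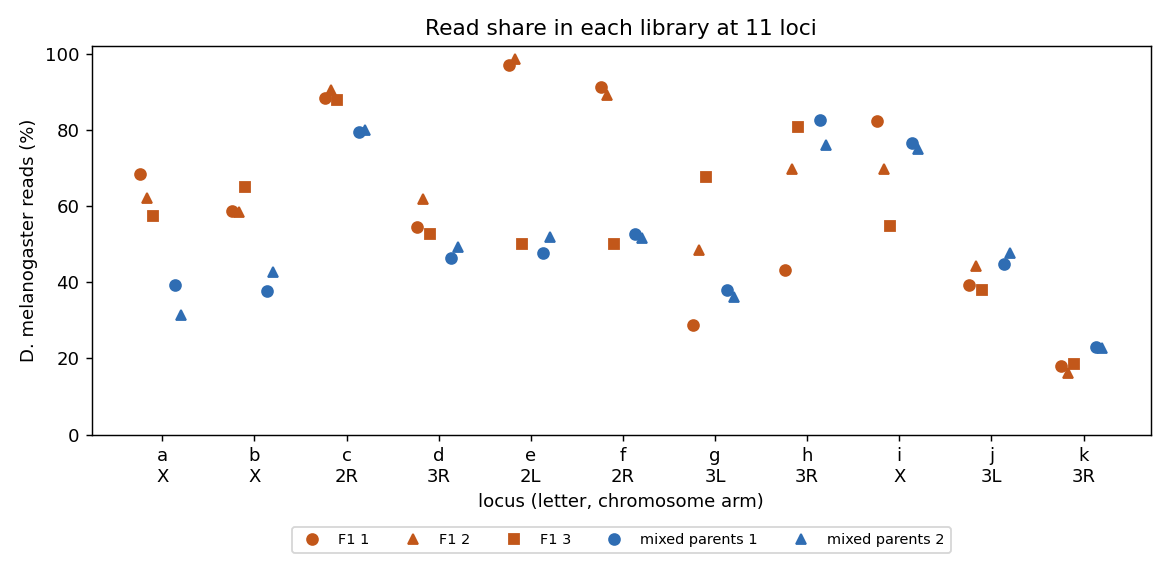
Share of D. melanogaster reads (%) in each F1 library (orange) and each mixed parents library (blue) at 11 loci. Letters stand for X 11848310 (a), X 11864562 (b), 2R 8646087 (c), 3R 1061931 (d), 2L 20872840 (e), 2R 10628830 (f), 3L 9860438 (g), 3R 16852418 (h), X 14166125 (i), 3L 9826390 (j) and 3R 16819563 (k); F1 replicate 3 (squares) lies beside the mixed parents at e, f and h.

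Sites of one locus mostly gave nearly the same share. Of 263 loci, 172 had at least 2 sites, and the range of their site shares had a median of 0.135 points in F1 and 0.166 points in the mixed parents. The range was under 5 points at 142 of them in F1 and at 139 in the mixture. Short loci could be uneven too: at 3R 4067701 to 4067757, 5 sites had 67.2% in F1 and 60.2% in the mixture, and the sixth, at 4067757, had 99.6% in F1 and 98.5% in the mixture. All sites of a locus differed in one direction between groups at 161 of the 172, but neighbouring sites can share reads, so much of this likeness is built in. Site shares ranged over more than 20 points at 15 loci in F1 and at 14 in the mixed parents, and 14 of these were the same loci. The widest was 2R 11759236 to 11759872, where the first site had 11.5% in F1 and 6.24% in the mixed parents, sites at 11759418 and 11759421 had 99.8% in F1 and 99.7% in the mixture, and the 4 sites from 11759849 on had 66.7% to 66.8% in F1 and 62.3% in the mixture. At 2R 9781085 to 9781439 the first site had 52.4% in F1 and 48.6% in the mixed parents, and the other 4 sites had 98.3% to 99.7% in F1 and 98.5% to 100% in the mixture. At 3R 14733374 to 14733532 both ends of the locus went opposite ways: its first 5 sites had 18.4% to 19.0% in F1 and 22.7% to 23.4% in the mixture, and its last 5 sites had 60.3% in F1 and 56.1% to 56.2% in the mixture. These 3 loci were picked for their spread, with no test, and one share for such a locus averages over unlike sites.

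**Figure D4:**
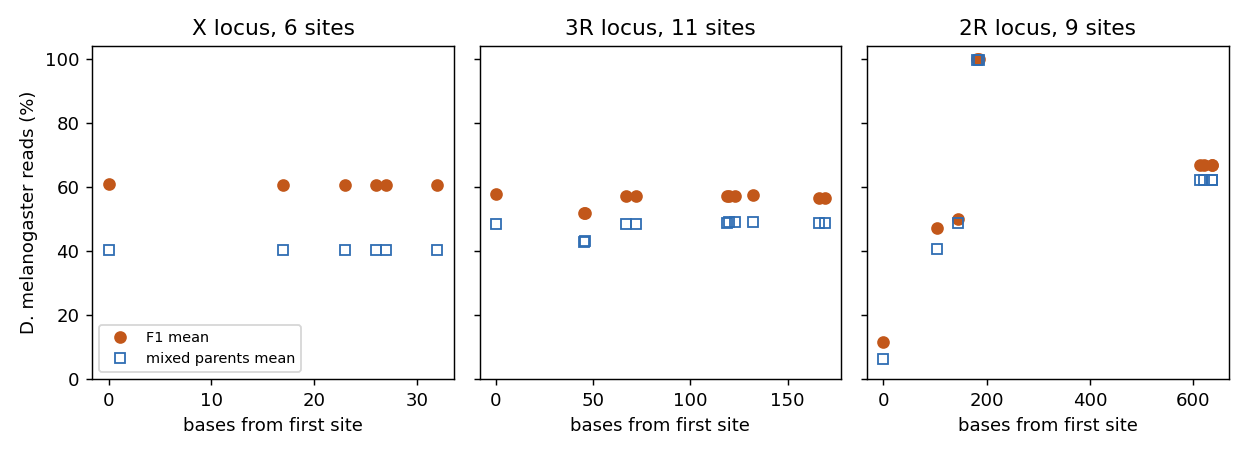
Mean share of D. melanogaster reads (%) at each site of 3 loci against the distance in bases from the first site, for F1 (filled circles) and the mixed parents (open squares). The sites of the X locus hold 60.7% to 60.8% in F1 and 40.2% in the mixture, the sites of the 3R locus lie 7.57 to 9.24 points higher in F1, and the sites of the 2R locus run from 11.5% to 99.8% in F1.

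Allele share and total editing are readouts of the same reads, and total editing follows the share where the alleles are edited differently. At 686 sites with at least 50 pooled reads of each allele in both groups, the change in total editing that the share difference alone would give, with allele levels held at their mean over the groups, had a median size of 0.0802 percentage points. The observed change had a median size of 0.95 points. The share alone gave more than 2 points at 22 sites and more than 5 points at 4. At 53 sites whose share differed by over 10 points, the medians were 0.160 points from the share and 1.02 points observed.

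The site most moved in this way was 2L 20872840. Its total editing was 0%, 0.446% and 21.0% in F1 replicates 1, 2 and 3, against 25.2% and 18.2% in the mixed parents, so the F1 libraries with few D. sechellia reads were also those with next to no edited reads. Over the pooled reads, the D. sechellia allele was edited at 39.5% in F1 and 42.5% in the mixture, but 190 of the 200 F1 reads of this allele and all 79 edited ones came from F1 replicate 3. F1 replicates 1 and 2 had 0 edited among 10. The D. melanogaster allele was edited at 0.310% in F1 and 0.530% in the mixture. The share alone would give -13.05 points, and -14.5 points were observed. Without F1 replicate 3 total editing averaged 0.223% in F1 and 21.7% in the mixture, -21.5 points, and the D. sechellia reads were too few for the value from the share alone. At 3R 4067707 the D. melanogaster reads were G at 97.8% in F1 and 98.6% in the mixture, and the D. sechellia reads at 0.885% in F1 and 0.413% in the mixture. Reads were G at 66.04% ± 3.82 in F1 (SD, n = 3), against 59.5% ± 0.0760 in the mixture (n = 2), a difference of 6.51 points where the share alone gave 6.85. With one allele nearly all G and the other nearly all A, total G largely restates the share there. At the 16 sites whose alleles differed by over 50 points, the median size was 4.45 points observed and 4.20 points from the share alone.

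The locus from 3R 1061931 to 1062100 holds a site whose total editing differed between F1 and mixed parents in earlier results of these data. Its 11 sites together had a share of 54.4%, 61.7% and 52.7% in F1, against 46.3% and 49.2% in the mixed parents. F1 lay above, without overlap, by 8.48 points (adjusted p = 0.173, quasi-binomial test), and without F1 replicate 3 the adjusted p was 0.0244. After centring on the median log odds it was 0.771, and 0.606 when F1 replicate 3 was left out as well. Centring and the other tests aside, it ran from 0.000639 to 0.314 over the alternatives that kept replicates in both groups. The lowest was again that of the replicate block, where F1 replicate 3 has a term of its own. The next lowest was the 0.0244 of the quasi-binomial test without F1 replicate 3. At that site the share alone would give 4.30 points of total editing, against 16.9 points observed, and the D. melanogaster allele itself was edited at 67.3% in F1 and 43.8% in the mixture.

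Adar F1 hybrids have a D. melanogaster parent with mutant Adar and were not used to choose the loci. At X 11864562 their share was 57.6%, 53.8% and 50.9%, beside a mean of 60.7% in F1 and 40.2% in the mixed parents. At X 11848310 it was 36.8%, 40.6% and 48.8%, beside 62.6% in F1 and 35.3% in the mixed parents, which places the Adar F1 libraries below all F1 libraries there. At 2R 8646087 it was 97.7%, 97.9% and 98.9%, beside 88.9% in F1 and 79.6% in the mixture. At 2L 20872840 all Adar F1 libraries, at 99.6%, 100% and 99.6%, stood with F1 replicates 1 and 2. Over 213 loci covered in all Adar F1 libraries the median share was 55.4% in Adar F1, 58.9% in F1 and 54.04% in the mixed parents.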

How the data were processed

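Every library has 1 table that the authors deposited, whose columns, per the file headers, hold read counts of either base (A or G) per site and species' sequence; these are whole numbers without normalization. The submitters' processing notes name BWA and the dm3 build; neither the BWA version nor how a read was given to a species is stated in the sources used here. The deposited editing percents were not used.

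Shares were computed from the counts. For the test, allele counts were averaged over a locus's sites, because neighbouring sites share reads. Each locus was fitted with a quasi-binomial logistic regression in R 4.3.3 on the 3 F1 and 2 mixed libraries. Dispersions were squeezed by coverage trend (limma 3.58.1) with a floor of 1, followed by a deviance F test and Benjamini-Hochberg adjustment at 0.05. The 4 loci without a D. sechellia read have no defined dispersion. The first run kept them with a dispersion near 0 and called no locus; they were then left out, a choice made after its result was seen, and 3 loci were called. The test was tried on simulated counts with the real coverage. Over 40 simulations it recovered on average 14.6% of loci changed by 0.25 in log odds. At a change of 0.5 it recovered 56%, and at 1 it recovered 87.8%. Most small differences would thus be missed, and a locus that did not pass can still differ. Reads carry no molecular identifiers, so upper limits from counts cover counting error only.

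Loci named by rule are the 10 largest rises and falls among called loci without overlap (3 rises, no fall), the 3 highest and 3 lowest F1 shares (the highest is a tie of 4 loci), and the locus of 1 site whose total editing had differed. Members and rules were chosen with earlier results of these data known. Replicate numbers were not taken to pair libraries, since nothing in the labels ties them. Alternatives were read minimums, misassignment limits, joining distances, single sites, unedited or thinned reads, other tests, centring, a replicate block and leaving out each library.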

Additional observations from a re-analysis of the deposited data

Results flagged for a closer look

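Reads of the other species appeared in the libraries of the separate species, which enter the comparison only through the choice of sites. Over all sites listed they made up 3.76% and 1.29% of the reads of D. sechellia replicates 1 and 2, and 2.10% and 2.08% of those of D. melanogaster replicates 1 and 2. At kept sites they made up 0.550% and 0.209% in D. sechellia, and 0.281% and 0.272% in D. melanogaster.

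The Adar F1 libraries lie outside the comparison, and at 21 of 213 loci covered in them their mean share lay over 30 points beyond both F1 and the mixed parents, above at 2 loci and below at 19. At 3R 6410574 the share was 11.6% ± 1.89 in Adar F1 and 93.5% ± 2.42 in F1 (SD, n = 3 each), and 92.8% ± 0.880 in the mixed parents (n = 2). At 3R 16790050 it was 0.847% ± 0.245 in Adar F1, 46.7% ± 1.63 in F1 and 42.4% ± 2.01 in the mixed parents. At 2L 19509475, where Adar F1 lay above, it was 74.4% ± 1.30 in Adar F1, 39.1% ± 2.37 in F1 and 31.6% ± 1.38 in the mixed parents. At X 11843915 the Adar F1 libraries disagreed, at 99.6%, 0.263% and 0%, while F1 stood at 99.02% ± 0.654 and the mixed parents at 99.2% ± 1.07.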

How the results depend on the processing

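The mean share over loci was higher in F1 under every alternative for which it was computed, by 3.40 to 4.17 points. It was not computed for some, among them centring, thinned reads and F1 replicate 3 as the only F1 library. F1 replicate 3 by itself averaged 63.7%, against 60.9% and 60.6% in the mixed parents. With 1 library left out the difference was 3.54 to 4.17 points, and the median over loci differed by 4.80 points. The number of loci called was far less stable. It was 3 with 20 reads per site or a misassignment limit of 10%, and 0 with 100 reads, a limit of 2%, no limit, joining within 5000 bases, unedited reads only, thinned reads, limma on arcsine shares or centring on the median log odds. It was 1 with counts summed over sites, 2 with limma on logit shares or a difference of at least 10 points, 5 with Adar F1 in the dispersion fit, 6 with joining within 200 bases or the site with most reads only, and 7 with at least 50 own-species reads. Fisher's exact test on summed reads ignores library spread and called 55 loci (53 higher, 2 lower). Leaving out 1 library gave 0 to 19 calls, the 19 without F1 replicate 3, and F1 replicate 3 as the only F1 library gave 22, with its variation taken to equal that between the mixed libraries. Chosen after seeing the data, at least 5 reads of each allele gave 7 calls, a robust squeeze 12, keeping the loci without a D. sechellia read gave 0 (the first run), and leaving out F1 replicate 3 with centring gave 3. With the replicate number as a block 37 loci were called (36 higher, 1 lower) and the mean difference was 4.17 points. F1 replicate 3 is the only compared library of its number. The block thus gives it a term of its own, and it adds nothing to the difference or its spread. The mean difference is therefore that found without F1 replicate 3. Same-numbered libraries did not deviate together (r = -0.00356), so the numbers show no pairing. The causes of these moves were not tested. All 3 called loci were among those called wherever 5 or more were called, and none of the loci named by rule changed direction. X 11848310 had 120 to 162 reads per library, below the median kept site.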
